A study of Mus musculus with 12 samples.

Results

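The S100 calcium-binding protein family was followed through RNA-seq counts of sorted mouse neutrophils. Its 8 members analyzed here, S100a8, S100a9, S100a6, S100a11, S100a13, S100a10, S100a1 and S100a4, were chosen by gene symbol among the 55335 genes listed in each library. The choice was made with earlier results of these data known. S100 proteins are small proteins with a pair of EF-hand motifs that bind calcium, and most work as dimers that change shape upon calcium binding. S100a8 and S100a9 form the heterodimer calprotectin, which fills much of the neutrophil cytosol, sequesters metals from microbes and, once released, acts on receptors such as Tlr4 and Ager. The other members act mainly inside the cell, through annexins, myosin and membrane proteins.

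TANs (tumor associated neutrophils) of 4 FVB-PyMT mice and of 4 FVB-PyMT-Cxcr2-/- mice were compared with each other and with BM (bone marrow) neutrophils of 4 WT FVB mice, all 10 weeks old and kept in SOPF housing. The polyoma middle T oncogene (PyMT) gives mice mammary tumors, and the Cxcr2-/- animals also lack the chemokine receptor Cxcr2, in every cell type rather than in neutrophils alone. Cells were enriched with CD11b and sorted as CD45+ CD11b+ Ly6G+ F4/80-, and each library is 1 sample of a group. The BM mice carry no PyMT, and tumors were digested with a dissociation kit while marrow cells were spun out of bones. The tissue, its handling, the oncogene and the tumor therefore cannot be told apart in a comparison of TANs with BM neutrophils. For PyMT-Cxcr2-/- TANs, the loss of Cxcr2 is a further difference from BM that cannot be told apart from these. Values are given as CPM, the count of a gene relative to the library size after scaling with TMM factors over the 12 libraries.

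Cxcr2 checked the labels. It was at 1536, 1048, 1130.2 and 1029.5 CPM in PyMT TANs, at 8.97, 9.78, 10.1 and 9.10 CPM in PyMT-Cxcr2-/- TANs, and at 2249.9, 2149.9, 1818 and 1922 CPM in WT BM neutrophils, as the genotypes state. Total counts on genes were between 25032704 and 51351569 per library, and 3 counts in a library, taken as the smallest level to be read, were between 0.0575 and 0.0997 CPM. This limit covers counting error only. Neutrophil markers (10 listed, among them Cxcr2 itself and the receptor Csf3r) summed to 5488 to 9489 CPM in PyMT TANs, 10762 to 18972 CPM in PyMT-Cxcr2-/- TANs and 52980 to 76290.2 CPM in BM neutrophils. Without Cxcr2 and Csf3r, the other 8 summed to 1520.3 to 3176, 6386 to 13514 and 47302 to 69722 CPM. Macrophage markers (10 listed) summed to 2144 to 5118, 2336 to 4890.2 and 220.3 to 315 CPM in the same order, and mammary epithelial markers (10 listed) to 53.1 to 482, 88.3 to 369.8 and 0.12 to 0.514 CPM. Fibroblast markers (6 listed) reached 35.3 CPM in TANs and 1.77 CPM in BM, and lymphocyte markers (6 listed) were at 10.9 to 51.8 CPM in TANs and 222 to 259 CPM in BM. No listed gene was at 0 in all libraries of a TAN group, while 5 of the 10 epithelial and 2 of the 6 fibroblast markers were at 0 in all 4 BM libraries. In bulk libraries, fewer cells of a type and less RNA per cell cannot be told apart.

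The members lie on chromosome 3 in the mm10 build (GRCm38), in 2 groups separated by 2825 kb. S100a1, S100a13, S100a4, S100a6, S100a8 and S100a9 lie between positions 90511034 and 90695721, and S100a11 and S100a10 between 93520488 and 93564643. S100a8 (ENSMUSG00000056054.9, chr3:90668978-90670035, plus strand) and S100a9 (ENSMUSG00000056071.12, chr3:90692632-90695721, minus strand) are neighbors 22.6 kb apart and point towards each other. S100a6 (ENSMUSG00000001025.8) spans chr3:90612882-90624181 and S100a11 (ENSMUSG00000027907.4) spans chr3:93520488-93526287, both on the plus strand.

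The promoter windows of these 4 genes are shown because they are the members called in all 3 comparisons. Each window holds 250 bases before and 50 bases after the RefSeq start of the gene (GRCm38.p6, C57BL/6J reference, whereas the mice were FVB), written 5′ to 3′ on the strand of the gene, and 7 of the 8 members had such a window. Capitals mark matches on either strand to TATAAA, the core of a TATA box, to TTGCNNAA, letters of the kind bound by C/EBP factors, and to TTCNNNGAA, the spaced pair bound by STAT factors.
S100a8, chr3:90668821-90669120, plus strand: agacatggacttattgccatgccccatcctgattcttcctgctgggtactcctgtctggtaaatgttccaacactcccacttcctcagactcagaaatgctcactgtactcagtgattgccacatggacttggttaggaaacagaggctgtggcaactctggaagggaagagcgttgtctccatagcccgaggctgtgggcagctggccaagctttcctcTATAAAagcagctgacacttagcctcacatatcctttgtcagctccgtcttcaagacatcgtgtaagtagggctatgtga
S100a9, chr3:90695672-90695971, minus strand: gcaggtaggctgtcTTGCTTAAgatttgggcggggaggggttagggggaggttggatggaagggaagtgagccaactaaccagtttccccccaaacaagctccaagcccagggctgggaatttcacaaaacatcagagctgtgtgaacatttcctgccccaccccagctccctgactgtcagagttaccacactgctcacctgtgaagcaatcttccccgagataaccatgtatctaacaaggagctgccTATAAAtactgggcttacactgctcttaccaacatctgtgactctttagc
S100a6, chr3:90612644-90612943, plus strand: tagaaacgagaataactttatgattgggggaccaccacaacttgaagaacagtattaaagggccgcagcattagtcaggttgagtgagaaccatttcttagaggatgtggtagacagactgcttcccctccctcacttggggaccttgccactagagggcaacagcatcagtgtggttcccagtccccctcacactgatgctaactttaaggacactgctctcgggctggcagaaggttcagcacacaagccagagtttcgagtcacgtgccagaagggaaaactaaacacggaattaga
S100a11, chr3:93520246-93520545, plus strand: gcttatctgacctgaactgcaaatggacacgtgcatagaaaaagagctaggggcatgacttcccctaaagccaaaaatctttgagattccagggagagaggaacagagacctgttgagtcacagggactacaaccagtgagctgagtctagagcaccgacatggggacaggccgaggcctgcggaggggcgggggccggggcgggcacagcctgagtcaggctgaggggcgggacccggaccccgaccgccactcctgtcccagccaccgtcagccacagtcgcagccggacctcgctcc
The window of S100a8 held TATAAA at position -30 from the start. That of S100a9 held TATAAA from the first base of the transcript and TTGCTTAA at position -236, and those of S100a6 and S100a11 held none of these letters. The matches did not overlap each other. Among 32851 windows of the same length, 13.6% held TATAAA, 10.8% held TTGCNNAA and 8.30% held TTCNNNGAA. A match describes the letters only.

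In all 3 groups, S100a8 and S100a9 made up nearly all S100 counts. PyMT TANs spent 0.614% to 0.915% of their counts on the 8 members, and this share was 1.16% to 1.73% for PyMT-Cxcr2-/- TANs and 4.89% to 6.03% for BM neutrophils, without overlap. S100a8 and S100a9 together held 95.2% to 97.8% of these S100 counts in every library. To compare members with each other, CPM were divided by the length of the annotated exons. This length joins the exons of all annotated transcripts of a gene, and for S100a4 it includes bases shared with another gene. The order of members at similar levels depends on it. In BM neutrophils, the level per kb was 67403 ± 12403 CPM (SD, n = 4) for S100a9, 40771 ± 3883 for S100a8, 979 ± 196 for S100a11, 721 ± 79.6 for S100a6, 21.8 ± 2.66 for S100a13, 3.04 ± 0.231 for S100a1, 0.851 ± 0.341 for S100a10 and 0.166 ± 0.0906 for S100a4. In PyMT TANs, S100a8 (5039 ± 1118 CPM per kb) and S100a9 (5025 ± 1318) were within each other's spread, as were S100a6 (111 ± 29.5) and S100a11 (93.9 ± 13.9), and S100a10 (11.8 ± 7.998), S100a1 (6.90 ± 3.32) and S100a13 (3.91 ± 1.25) followed. In PyMT-Cxcr2-/- TANs, S100a9 (10571 ± 2990 CPM per kb) and S100a8 (10180.1 ± 2790.4) were again alike within their spread, and S100a6 (354 ± 74.9) was above S100a11 (169 ± 18.8) in mean, with S100a10 at 11.3 ± 3.98. S100a4 was the lowest member per kb in all 3 groups, at 0.874 ± 0.269, 0.868 ± 0.588 and 0.166 ± 0.0906 CPM in the order PyMT TAN, PyMT-Cxcr2-/- TAN and BM.

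**Figure D1:**
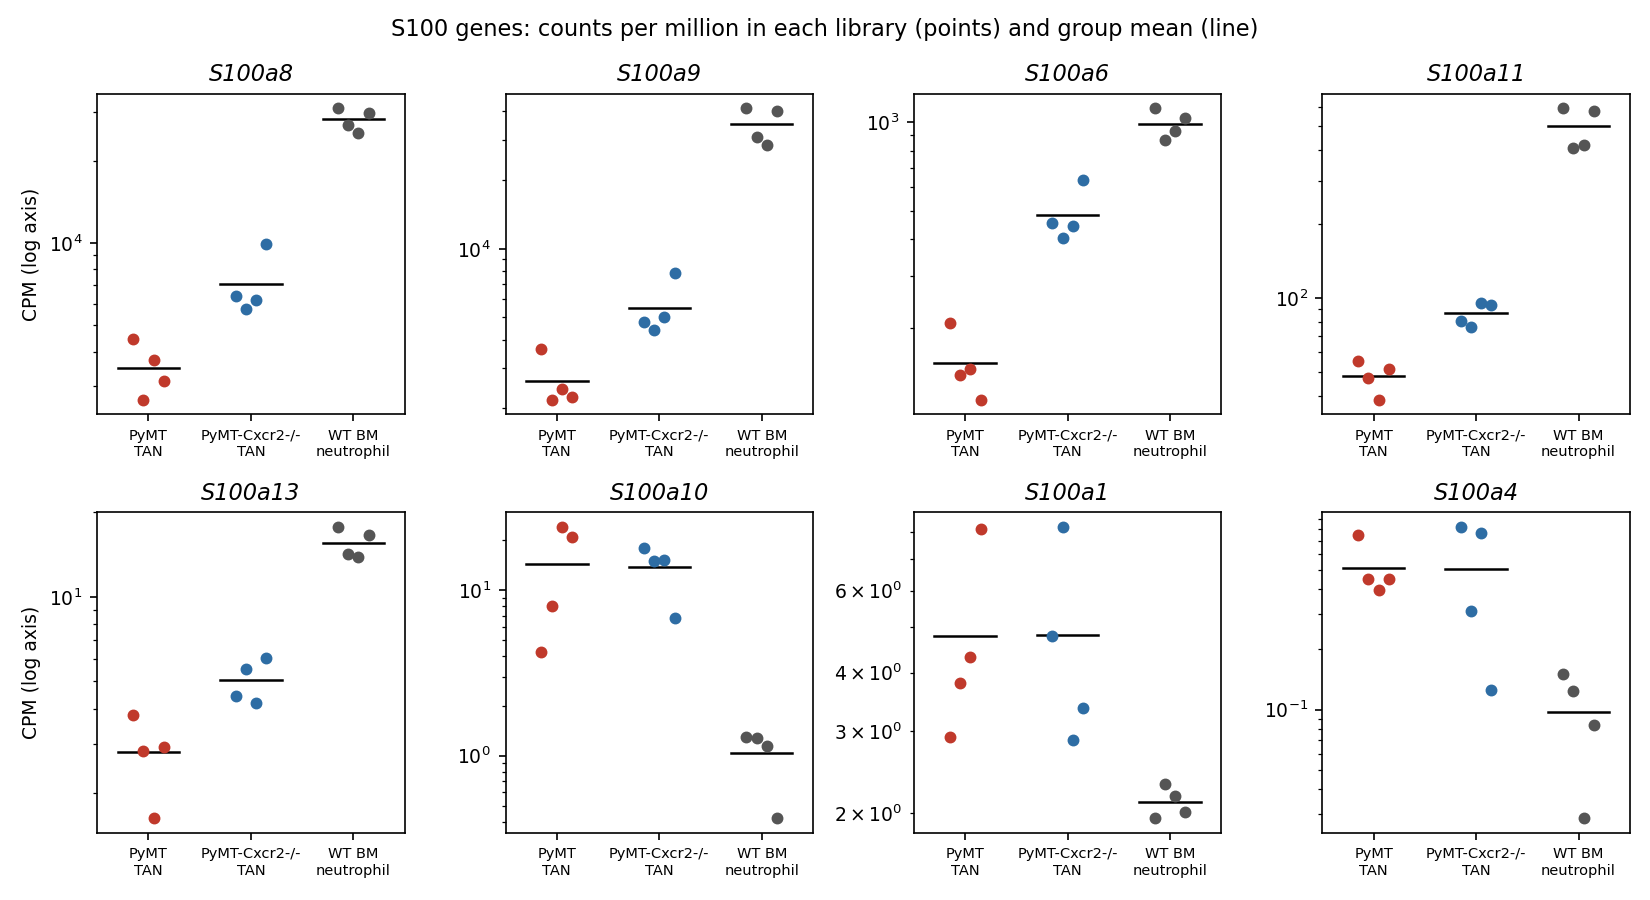
CPM of each S100 member in each library on a log axis, with 1 point per library and a line at the group mean, for PyMT TANs, PyMT-Cxcr2-/- TANs and WT BM neutrophils. The 5 members S100a8, S100a9, S100a6, S100a11 and S100a13 are highest in BM and lowest in PyMT TANs without overlap, S100a10 and S100a1 are higher in TANs than in BM, and S100a4 is near the detection limit throughout.

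The comparison of PyMT-Cxcr2-/- TANs with PyMT TANs sets neutrophils of the same tumor model without and with Cxcr2 side by side. The authors reported heavier tumors in PyMT-Cxcr2-/- mice, with more neutrophils and fewer macrophages. The loss of Cxcr2, the tumor load and the cell mix therefore cannot be told apart in this comparison. Of the 8 members, 4 were higher in PyMT-Cxcr2-/- TANs (S100a8, S100a9, S100a6 and S100a11) and 0 were lower, by edgeR's quasi-likelihood test (Benjamini-Hochberg adjusted p below 0.05, with at least a 1.5-fold change). Among the 18463 genes tested, 1.38% were called higher and 0.596% lower. In S100a13 the groups did not overlap either, which makes 5 of 8 members higher without overlap, while 6.89% of the tested genes were higher without overlap. The median log2 fold change of the 8 members was 0.82, beside -0.07 for all genes tested. The members were chosen with earlier results known, and the authors had reported higher S100a8 and S100a9 in PyMT-Cxcr2-/- TANs. These shares and medians are therefore no test of the family. Of 4 further S100 genes tested in this comparison, 0 were called. S100a1, S100a10 and S100a4 were not called.

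S100a8, the smaller subunit of calprotectin, was at 4460.05, 2673, 3737 and 3119 CPM in PyMT TANs and at 6376, 5749, 6192 and 9943 CPM in PyMT-Cxcr2-/- TANs. Every PyMT-Cxcr2-/- library was above every PyMT library, and replicate 4 of PyMT-Cxcr2-/- stood far above the other three. The log2 fold change was 0.98 ± 0.21 (SE, n = 4 per group), a fold of 1.97, with an adjusted p of 0.0412 by edgeR's quasi-likelihood test. S100a9, the larger subunit and partner, was at 3641, 2181, 2440.3 and 2229.9 CPM in PyMT TANs and at 4788, 4427, 5027 and 7829.7 CPM in PyMT-Cxcr2-/- TANs. The groups did not overlap and the same PyMT-Cxcr2-/- library was the highest. S100a9 rose by 1.04 ± 0.22 on the log2 scale, a fold of 2.06, with an edgeR adjusted p of 0.0377.

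S100a6 (calcyclin), which binds annexins and the Cacybp protein, showed the largest difference among the members. It was at 209, 139, 145 and 115 CPM in PyMT TANs and at 456, 404, 443 and 634 CPM in PyMT-Cxcr2-/- TANs. The lowest PyMT-Cxcr2-/- library was well above the highest PyMT library. The log2 fold change was 1.64 ± 0.20, a fold of 3.12, with an edgeR adjusted p of 0.00737. S100a11, a ligand of annexins that works in membrane repair, was at 55.2, 47.1, 38.5 and 51.1 CPM in PyMT TANs and at 80.7, 76.1, 95.4 and 93.98 CPM in PyMT-Cxcr2-/- TANs. These groups were also separate, and replicate 4 of PyMT-Cxcr2-/- was not the highest here. S100a11 rose by 0.82 ± 0.15 on the log2 scale, a fold of 1.76, with an edgeR adjusted p of 0.0191. A processed pseudogene, S100a11-ps, held at most 2 counts in any library.

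S100a13, which takes part in the release of Fgf1 from cells, was at 3.80, 2.82, 1.63 and 2.92 CPM in PyMT TANs and at 4.45, 5.52, 4.196 and 6.06 CPM in PyMT-Cxcr2-/- TANs. Again the groups were separate. S100a13 differed by 0.82 ± 0.32 on the log2 scale, as much as S100a11, but the edgeR adjusted p was 0.235. For S100a10, S100a1 and S100a4 the TAN groups overlapped widely. Their log2 fold changes were -0.10 ± 0.50, -0.03 ± 0.41 and -0.04 ± 0.80, with 95% intervals from -1.08 to 0.87, from -0.84 to 0.78 and from -1.62 to 1.53. Each interval allows a change of more than 1.5-fold in either direction, so these 3 genes are not shown to be alike in both TAN groups.

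The calls of S100a8, S100a9 and S100a11 depended on the processing, and that of S100a6 did so less. Under 11 alternatives that kept every library, the call was held in 7 for S100a8, 8 for S100a9, 8 for S100a11 and 9 for S100a6. DESeq2 held all 4 calls, and the replicate block lost all 4. After the trend of each library with GC content and gene length was removed, edgeR's adjusted p was 0.458 for S100a8, 0.382 for S100a9, 0.334 for S100a11 and 0.0399 for S100a6, with log2 fold changes of 0.64, 0.70, 0.52 and 1.43. Without replicate 4 of PyMT-Cxcr2-/-, which also held the highest sum of neutrophil markers (18972 CPM), S100a8 was at 0.79 (adjusted p = 0.121), S100a9 at 0.85 (adjusted p = 0.116), S100a11 at 0.80 (adjusted p = 0.0684) and S100a6 at 1.51 (adjusted p = 0.0157), all by the same edgeR test. Leaving out 1 library at a time, S100a8 and S100a9 were called in 2 of 8 fits (without PyMT replicate 1 and without PyMT-Cxcr2-/- replicate 2), S100a11 in 5 of 8 and S100a6 in 8 of 8, and the direction was kept in each of these fits. The sort marker itself moved as well. Ly6g was at 20.01 to 48.4 CPM in PyMT TANs and at 106 to 183 CPM in PyMT-Cxcr2-/- TANs, with a log2 fold change of 1.81 ± 0.27 (edgeR adjusted p = 0.0113). Of the 10 neutrophil markers, 6 were called higher and 1, Cxcr2, lower, while 0 of the 10 macrophage, 0 of the 10 epithelial and 0 of the 6 fibroblast markers were called in either direction. Of all genes tested, 1.38% were called higher and 0.596% lower. The median log2 fold change was 1.85 for the fibroblast markers, and 1 of the 5 lymphocyte markers tested, Cd3d, was called higher. The part of these marker differences in the S100 differences was not tested.

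**Figure D2:**
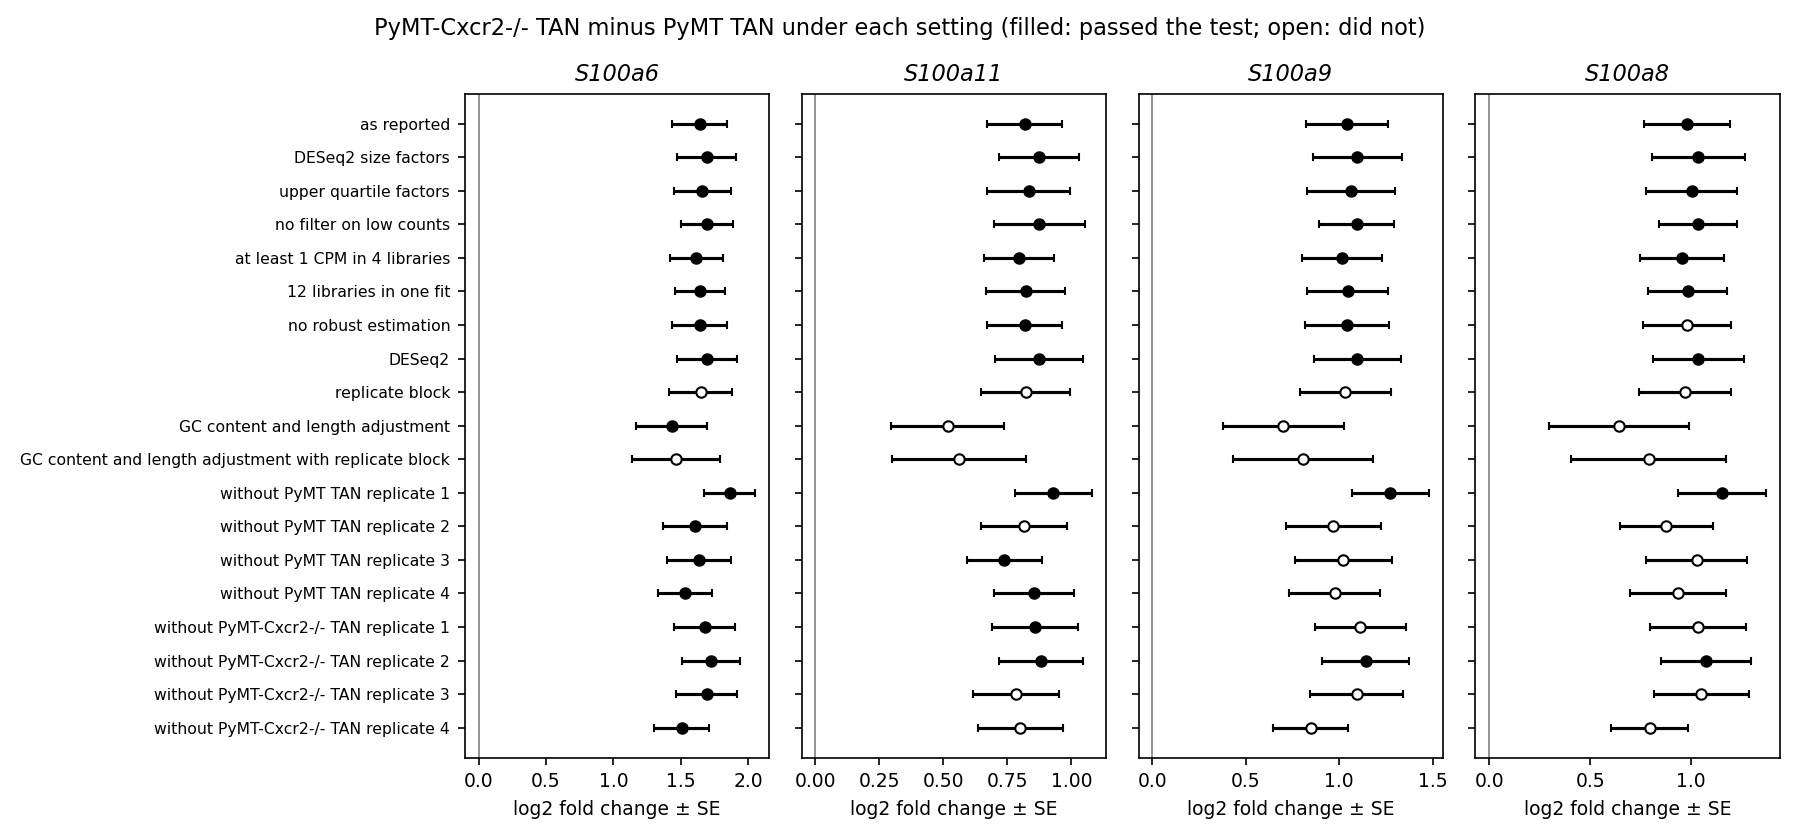
Log2 fold change of S100a6, S100a11, S100a9 and S100a8 in PyMT-Cxcr2-/- TANs relative to PyMT TANs (bars are SE) as reported and under each other setting, with filled points where the gene passed the test. All points lie above 0, and S100a6 loses the call only where the replicate number is a block, while S100a8 and S100a9 lose it in 6 of the 8 fits that leave out a library.

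Each TAN group was also compared with WT BM neutrophils. This comparison joins tissue, handling, oncogene and tumor, and for PyMT-Cxcr2-/- TANs also the loss of Cxcr2. In PyMT TANs, 5 of 8 members were lower (S100a8, S100a9, S100a6, S100a11 and S100a13) and 3 were higher (S100a10, S100a1 and S100a4), while 23.2% of the 17153 genes tested were lower and 30.1% higher. In PyMT-Cxcr2-/- TANs, 7 of the 8 members passed the filter on low counts, of which the same 5 genes were lower and 2 were higher (S100a10 and S100a1), while 25.1% of the 17732 genes tested were lower and 34.4% higher. S100a4 did not pass that filter, and in the other comparison its 12 to 35 counts in PyMT TANs set against 1 to 5 in BM let it pass through the group where it is high. The median log2 fold change of the tested members was -2.51 in PyMT TANs and -1.51 in PyMT-Cxcr2-/- TANs, beside 0.09 for all genes in both comparisons. The comparisons share the BM libraries, so they are not independent of each other.

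**Figure D3:**
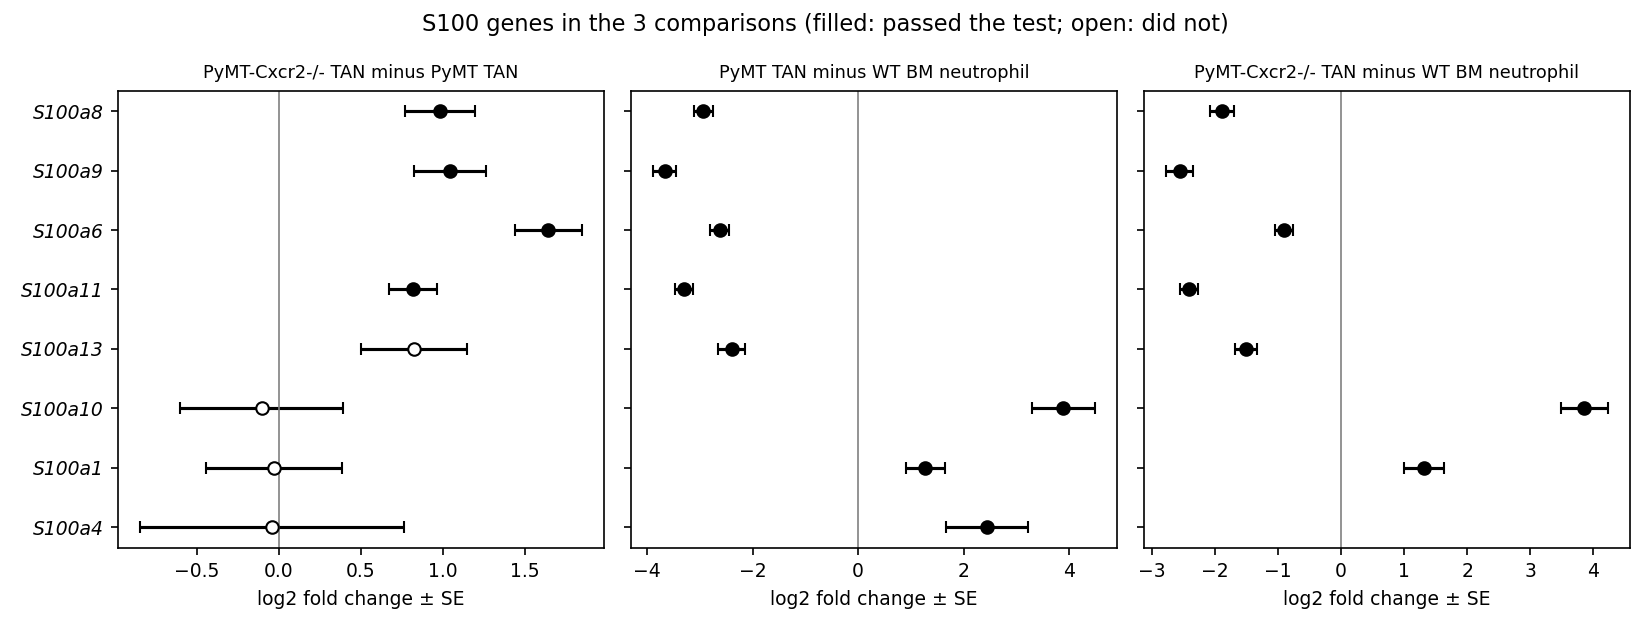
Log2 fold changes of the S100 members in the 3 comparisons, with SE as bars, filled where the gene passed edgeR's test. Against BM, 5 members lie left of 0 and S100a10 and S100a1 right of 0 in both TAN groups, and S100a4 was not tested in PyMT-Cxcr2-/- TANs.

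S100a8 was at 31132, 27048, 25163 and 29836 CPM in WT BM neutrophils. It was 7.66-fold lower in PyMT TANs (log2 fold change -2.94 ± 0.18, edgeR adjusted p = 2.8e-07) and 3.69-fold lower in PyMT-Cxcr2-/- TANs (-1.89 ± 0.19, edgeR adjusted p = 1.3e-06). S100a9 was at 41351, 30962, 28380.5 and 40044 CPM in BM. It was 12.7-fold lower in PyMT TANs (-3.67 ± 0.22, edgeR adjusted p = 2.1e-07) and 5.88-fold lower in PyMT-Cxcr2-/- TANs (-2.56 ± 0.22, edgeR adjusted p = 2.6e-07). For both subunits the lowest BM library was more than any TAN library by a wide margin.

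S100a6 was at 1114, 866, 933 and 1031 CPM in BM, and it was 6.16-fold lower in PyMT TANs (log2 fold change -2.62 ± 0.18) but 1.88-fold lower in PyMT-Cxcr2-/- TANs (-0.91 ± 0.14). Among the 5 members that were lower in TANs, S100a6 was the closest to its marrow level in PyMT-Cxcr2-/- TANs. The edgeR adjusted p was 5.6e-07 and 7.7e-05. S100a11, at 594, 408, 419 and 579.98 CPM in BM, was 9.87-fold and 5.32-fold lower (edgeR adjusted p = 1.1e-07 and 1.9e-08), and S100a13, at 17.8, 14.2, 13.9 and 16.6 CPM in BM, was 5.28-fold and 2.84-fold lower (edgeR adjusted p = 1.6e-05 and 3.7e-06). For each of these 3 genes the 4 BM libraries were above all 8 TAN libraries. These 10 calls were kept under all alternatives tried, leaving out any library included.

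S100a10, which forms a complex with Anxa2 at the plasma membrane and binds the scaffold Ahnak, moved in the opposite direction. It was at 1.29, 1.28, 1.14 and 0.419 CPM in BM, at 4.25, 8.01, 24.2 and 20.9 CPM in PyMT TANs and at 17.9, 14.97, 15.3 and 6.77 CPM in PyMT-Cxcr2-/- TANs. All TAN libraries were above all BM libraries, and the spread within PyMT TANs was large, with a coefficient of variation of 67.6%. The log2 fold change against BM was 3.89 ± 0.59 in PyMT TANs (edgeR adjusted p = 0.00018) and 3.86 ± 0.37 in PyMT-Cxcr2-/- TANs (edgeR adjusted p = 1.1e-06). Among PyMT TANs, the libraries with high S100a10 were those with high sums of epithelial markers, which were 53.1, 69.0, 328 and 482 CPM in replicates 1 to 4. Among PyMT-Cxcr2-/- TANs, these sums were 271, 369.8, 88.3 and 129 CPM and did not follow S100a10, which was lowest in replicate 4. Fibroblast markers summed to 0.807, 2.87, 13.4 and 8.53 CPM in PyMT TANs and to 23.7, 33.8, 35.3 and 1.79 CPM in PyMT-Cxcr2-/- TANs, with the same lowest library as S100a10 in both groups. Macrophage markers were at 2144, 4743, 5118 and 3503 CPM in PyMT TANs and at 4241, 4890.2, 2787 and 2336 CPM in PyMT-Cxcr2-/- TANs, and all 10 of them were called higher than in BM in both TAN groups. Of these, Mrc1 was at 15.7, 30.8, 245 and 202 CPM in PyMT TANs and at 109, 89.6, 129 and 42.7 CPM in PyMT-Cxcr2-/- TANs, and Cd163 was at 0.404, 2.08, 53.5 and 27.6 CPM and at 18.5, 6.45, 16.7 and 3.83 CPM. Both had their 2 higher PyMT libraries and their lowest PyMT-Cxcr2-/- library in common with S100a10. They are 2 of the 10 macrophage markers and were named after their values were seen. The sum of all 10 had the same highest and lowest PyMT library as S100a10, but not the same 2 higher ones. The part of these other cell types in the level of S100a10 was not tested.

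S100a1, best known from striated muscle, was at 1.95, 2.30, 2.17 and 2.01 CPM in BM, at 2.91, 3.79, 4.32 and 8.13 CPM in PyMT TANs and at 4.79, 8.23, 2.87 and 3.35 CPM in PyMT-Cxcr2-/- TANs. The lowest TAN library was above the highest BM library, though by little. The log2 fold change against BM was 1.27 ± 0.37 in PyMT TANs (edgeR adjusted p = 0.0117) and 1.31 ± 0.32 in PyMT-Cxcr2-/- TANs (edgeR adjusted p = 0.0022). Without PyMT replicate 4, its highest library, the first of these was 0.86 with an edgeR adjusted p of 0.0501. S100a1 and S100a13 start 42 bases apart on opposite strands (S100a1 at chr3:90511034-90514392, minus, and S100a13 at chr3:90514435-90524581, plus), and S100a1 was called higher and S100a13 lower than in BM in both TAN groups. The RefSeq promoter window of S100a13 (chr3:90514185-90514484, plus strand) is shown because it covers the start of both genes, with the bases between the annotated genes in capitals.
S100a13 and S100a1: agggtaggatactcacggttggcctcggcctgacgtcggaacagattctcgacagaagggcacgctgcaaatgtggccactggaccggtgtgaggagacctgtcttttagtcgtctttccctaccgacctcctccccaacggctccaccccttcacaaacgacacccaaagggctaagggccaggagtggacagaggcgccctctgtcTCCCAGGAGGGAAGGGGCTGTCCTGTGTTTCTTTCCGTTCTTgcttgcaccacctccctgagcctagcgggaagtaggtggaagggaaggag
This window and the one of S100a1 held no match to the 3 motifs above.

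S100a4 (metastasin), a partner of the heavy chain encoded by Myh9, was near the limit of what could be read. Its counts were 35, 17, 12 and 22 in PyMT TANs, 43, 12, 37 and 6 in PyMT-Cxcr2-/- TANs and 5, 4, 1 and 3 in BM. PyMT TANs were above BM in every library, whereas the PyMT-Cxcr2-/- TANs overlapped with BM. The log2 fold change of PyMT TANs against BM was 2.44 ± 0.77 (edgeR adjusted p = 0.0178), and it was lost without any of the 4 BM libraries (edgeR adjusted p between 0.0510 and 0.0948), without a filter on low counts (0.142) and under the replicate block (0.0810). These counts are uncertain. In the GENCODE M21 annotation, 302 of the 584 exon bases of S100a4 (ENSMUSG00000001020.8, chr3:90603771-90606045) are shared with the gene Gm42674 on the same strand, and reads there can be set aside as ambiguous. Gm42674, whose 446 exon bases all lie in S100a3 or S100a4, held 0 counts in all 12 libraries.

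S100a9 and S100a8 differed unequally between TANs and BM, and their ratio within a library does not depend on the scaling of libraries. Counts of S100a9 per count of S100a8 were 1.33, 1.14, 1.13 and 1.34 in BM, 0.816, 0.816, 0.653 and 0.715 in PyMT TANs and 0.751, 0.770, 0.812 and 0.787 in PyMT-Cxcr2-/- TANs. All BM libraries were above 1 and all TAN libraries below 1. The log2 ratio was lower than in BM by -0.72 in PyMT TANs and by -0.66 in PyMT-Cxcr2-/- TANs, each with p = 0.0286 by a two-sided exact permutation test, the smallest that 4 against 4 libraries can give (adjusted p = 0.0343 over 6 ratio tests). Between the TAN groups the log2 ratio differed by 0.06 (exact permutation p = 0.543). The ratio of S100a4 to S100a6 counts differed by -2.01 on the log2 scale between PyMT-Cxcr2-/- and PyMT TANs (exact permutation p = 0.0286), and by 5.33 and 3.32 between PyMT TANs and BM and between PyMT-Cxcr2-/- TANs and BM (exact permutation p = 0.0286 in both), with the uncertainty of the S100a4 counts given above. With 1 library left out, the ratio differences of -2.01 and 3.32 kept their call in 4 of 8 tests each and ranged from -2.38 to -1.32 and from 2.84 to 4.01. S100a4 alone was not called between the TAN groups, so the -2.01 is no result apart from the S100a6 difference given above. The 3.32 rests on a comparison in which S100a4 did not pass the filter on low counts. The 5.33 rests on 1 to 5 counts of S100a4 in BM, and S100a4 passed that filter only through PyMT TANs. It is no result apart from the S100a4 and S100a6 differences from BM given above.

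**Figure D4:**
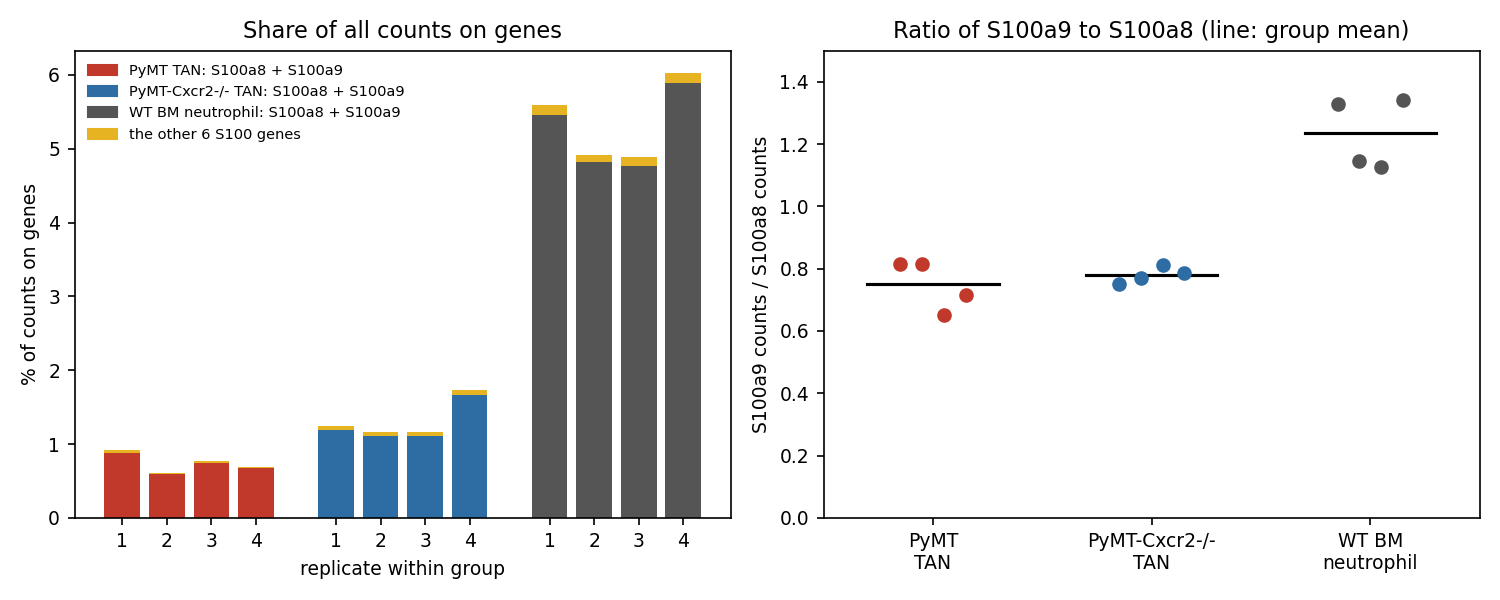
Left, percent of all counts on genes that fell on S100a8 plus S100a9 (colored by group) and on the other 6 S100 members (yellow) in each library. Right, counts of S100a9 divided by counts of S100a8 in each library with a line at the group mean. The share is below 2% in all TAN libraries and above 4% in all BM libraries, and the ratio is above 1 in BM libraries alone.

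As a description over the 12 libraries, the members fell into sets that moved together. On log2 CPM, Pearson's r was 0.996 between S100a8 and S100a9, 0.943 between S100a8 and S100a6 and 0.979 between S100a8 and S100a11, most of which is the step from TANs to BM. After each group's mean was removed, r was 0.93, 0.86 and 0.41 for the same pairs, and -0.47 between S100a8 and S100a10 and -0.71 between S100a6 and S100a10. All genes share the libraries, their depth and the mix of cells. Among 3999 genes with an average log2 CPM of at least 5, genes outside the family most like S100a8 over the 12 libraries included Lcn2 (r = 0.996), which encodes the siderophore-binding granule protein lipocalin 2, Degs1 (0.996), Anxa1 (0.995) and Tfdp1 (0.995), with r of 0.886 to 0.927 after removal of the group means. Those most like S100a6 were Ifitm6 (r = 0.989), Atxn10 (0.988), Klhl5 (0.987), Flot2 (0.986) and Ntng2 (0.985), with r of 0.804 to 0.875 after removal of the group means.

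Of 9 further S100 genes listed, 8 were in the table and all were low. S100a7a (ENSMUSG00000063767.4), which lies between S100a6 and S100a8, was at 5.89 to 6.88 CPM in BM, 0.527 to 0.765 CPM in PyMT TANs and 0.671 to 2.24 CPM in PyMT-Cxcr2-/- TANs. It was lower than in BM by -3.28 ± 0.31 and -2.12 ± 0.33 on the log2 scale (edgeR adjusted p = 5.6e-06 and 6.7e-05), and its TAN groups overlapped. S100g, a calcium-binding protein of the intestine, had 14 to 44 counts in BM, 0 to 12 in PyMT TANs and 10 to 15 in PyMT-Cxcr2-/- TANs, and was called lower in both comparisons (edgeR adjusted p = 0.0222 and 0.00536). The first call was kept in 4 of 8 fits with a library left out (edgeR adjusted p up to 0.0750) and lost under the replicate block (0.0572), and the second was lost with 12 libraries in 1 fit (0.120). S100a3 had 23 to 37 counts in BM, 8 to 18 in PyMT-Cxcr2-/- TANs and 1, 0, 0 and 0 in PyMT TANs. It was called lower than in BM in both TAN groups. In PyMT TANs the call was kept in 8 of 8 fits with a library left out. At 0 or 1 counts the size of that change is not resolved. In PyMT-Cxcr2-/- TANs the edgeR adjusted p was 0.00947, and 0.0836 with 12 libraries in 1 fit. Of the exon bases of S100a3, 144 are shared with Gm42674. S100g and S100a3 passed the filter on low counts through BM, the group where they are high, so their lower calls are not independent of that filter. S100a16 had 0 counts in every BM library and 48 to 94 counts in PyMT-Cxcr2-/- TANs, at least 17.1-fold more when the mean of 1.59 CPM is set against the highest level of 3 counts in a BM library, and 10, 0, 42 and 139 counts in PyMT TANs. It passed the filter on low counts through PyMT-Cxcr2-/- TANs, the group where it is high. Its difference from BM is thus not independent of that filter, and the 17.1-fold depends on the limit of 3 counts. S100b, known from astrocytes, was at 0 to 0.896 CPM in all groups and was not called. S100a5 and S100a14 did not pass the filter, and S100z had 0 counts in all 12 libraries.

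Of 10 receptors and sensors of released S100 proteins listed, 5 were higher and 2 lower than in BM in PyMT TANs (30.1% and 23.2% of all genes tested) and likewise in PyMT-Cxcr2-/- TANs (34.4% and 25.1% of all genes). Between the TAN groups 1 was lower (0.596% of all genes). The list holds genes of macrophages as well, whose markers were higher in TANs. Cd14, the co-receptor of Tlr4, was 3.75 ± 0.18 and 4.04 ± 0.15 higher than in BM on the log2 scale, and the scavenger receptor Cd36 was 6.52 ± 0.79 and 6.76 ± 0.52 higher. Ager, the receptor RAGE, was lower by -1.89 ± 0.32 and -1.48 ± 0.22. Cd68, a lysosomal glycoprotein, was 1.67 ± 0.15 higher in PyMT-Cxcr2-/- TANs than in BM. In PyMT TANs it was also above BM in every library, at 68.7 to 139 CPM against 35.0 to 48.4 CPM. Tlr4 itself was at 158 to 225 CPM in PyMT TANs, 163 to 208 CPM in PyMT-Cxcr2-/- TANs and 123 to 164 CPM in BM, and did not pass in any comparison. Against BM its adjusted p was below the threshold (0.00766 and 0.00048 by edgeR) but its log2 fold changes of 0.50 ± 0.13 and 0.57 ± 0.11 were under 1.5-fold. Cd69, an early activation antigen reported to bind S100A8/A9, was at 128, 102, 160.2 and 127 CPM in PyMT TANs and at 53.1, 33.2, 79.9 and 74.6 CPM in PyMT-Cxcr2-/- TANs. It was lower in every PyMT-Cxcr2-/- library (log2 fold change -1.14 ± 0.25, edgeR adjusted p = 0.0451), yet this call was lost when any 1 library was left out (edgeR adjusted p between 0.0542 and 0.116). Against BM, Cd69 was 3.96 ± 0.25 higher in PyMT TANs and 2.89 ± 0.30 higher in PyMT-Cxcr2-/- TANs.

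Intracellular partners of S100 proteins were called higher in PyMT-Cxcr2-/- TANs than in PyMT TANs in 3 of the 11 tested (12 listed), and lower in 0, beside 1.38% and 0.596% of all genes tested. All 3 were annexins, the calcium-dependent membrane-binding proteins that S100a10, S100a11 and S100a6 dock to. The other annexins listed, Anxa5 and Anxa6, were not called. Anxa5 overlapped between the groups, at 31.7 to 74.8 CPM in PyMT TANs and 42.4 to 70.5 CPM in PyMT-Cxcr2-/- TANs. Anxa6 was at 232 to 302 CPM and 308 to 366 CPM in the same order. Anxa1 was at 807, 607, 643 and 615 CPM in PyMT TANs and at 1234.5, 1325, 1251 and 2401 CPM in PyMT-Cxcr2-/- TANs (log2 fold change 1.18 ± 0.22, edgeR adjusted p = 0.0222). Anxa11 differed by 0.86 ± 0.15 (edgeR adjusted p = 0.019) and Anxa2 by 0.63 ± 0.13 (edgeR adjusted p = 0.0394), without overlap between the groups. After the adjustment for GC content and length, Anxa1, Anxa11 and Anxa2 were at 1.16, 0.77 and 0.57 on the log2 scale and no longer called (edgeR adjusted p = 0.0845, 0.135 and 0.260). With a library left out, Anxa1 and Anxa11 were called in 5 of 8 fits each and Anxa2 in 1 of 8. Anxa11 and Anxa2 overlap antisense genes over 113 and 98 exon bases.

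Against BM, 6 of the 10 partners tested were lower and 1 was higher in PyMT TANs, and 4 of 11 were lower and 3 higher in PyMT-Cxcr2-/- TANs. Of all genes tested, 23.2% were lower and 30.1% higher in the first comparison and 25.1% and 34.4% in the second, so the counts in PyMT-Cxcr2-/- TANs are near those of all genes. Anxa1 was lower by -3.15 ± 0.15 and -1.90 ± 0.21 on the log2 scale, and Myh9 by -1.81 ± 0.21 and -1.11 ± 0.19, while Anxa2 was lower by -1.64 ± 0.12 and -0.94 ± 0.12. Ahnak, the large scaffold bound by the S100a10 complex, was higher by 4.49 ± 0.47 and 4.81 ± 0.38. It was at 10.6 to 28.4 CPM in BM, at 172, 238, 639.8 and 506 CPM in PyMT TANs and at 549, 565, 553 and 236 CPM in PyMT-Cxcr2-/- TANs, and its lowest and highest PyMT libraries and its lowest PyMT-Cxcr2-/- library were those of S100a10. Anxa2, the other partner of S100a10, was thus lower in TANs than in BM where S100a10 and Ahnak were higher. Plat had 26 to 45 counts in PyMT-Cxcr2-/- TANs and 0, 0, 2 and 0 in BM, so it passed the filter on low counts through the group where it is high.

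Transcription factors known to act on S100a8 and S100a9, or on the granulocyte program they belong to, were not called between the TAN groups (0 of 8). Of all genes tested, 1.38% were called higher and 0.596% lower, so 0 of 8 does not show that these factors were alike in both groups. Their median log2 fold change was 0.34, beside -0.07 for all genes tested. Against BM, 4 of the 8 factors were higher and 3 lower in both TAN groups, beside 30.1% and 23.2% of all genes in PyMT TANs and 34.4% and 25.1% in PyMT-Cxcr2-/- TANs. Cebpe, which drives late granule genes, was at 109 to 191 CPM in BM, at 1.64 to 2.79 CPM in PyMT TANs and at 4.12, 3.46, 4.86 and 18.96 CPM in PyMT-Cxcr2-/- TANs. It was lower than in BM by -5.81 ± 0.24 and -4.09 ± 0.60 on the log2 scale, and its highest TAN library, PyMT-Cxcr2-/- replicate 4, was also the highest for S100a8, S100a9 and S100a6. Cebpd was lower by -1.72 ± 0.20 and -1.36 ± 0.12. Cebpb, a factor of emergency granulopoiesis, was higher by 1.67 ± 0.27 and 2.49 ± 0.14, and Hif1a, the hypoxia-induced factor, by 1.80 ± 0.21 and 1.85 ± 0.15. Cebpb, Cebpd and Hif1a overlap genes on the opposite strand, Hif1a also one on its own strand, and the strand setting of the counting is not given in the sources used here.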

How the data were processed

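Neutrophil libraries of 12 mice in 3 groups of 4 were used. Libraries were directional and depleted of ribosomal RNA. The authors trimmed the reads, used STAR for alignment (mm10) and HTSeq for gene counts, which they deposited unnormalized. The authors tested with DESeq2. The annotation release and the strand setting were not given in the sources used here, and 55154 of the 55335 listed genes matched GENCODE M21. HTSeq set 32.0% to 52.5% of each library's total to no feature and 1.92% to 2.92% to ambiguous, and these classes were left out of library sizes. Replicates differed by more than sampling noise, with chi-square values between 24.9 and 150.5 times their degrees of freedom.

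In R 4.3.3, edgeR 4.0.16 was used with TMM factors, its default filter on low counts, robust estimation and the quasi-likelihood test with Benjamini-Hochberg adjustment, on the 2 groups of each comparison. Genes were called at an adjusted p below 0.05 and at least 1.5-fold. The alternatives were other factors and filters, 12 libraries in 1 fit, no robust estimation, DESeq2 1.42.0, an adjustment for GC content and length, the replicate number as a block, no minimum fold and each library left out. The labels give separate samples per group, and p-values measure the spread between these. On simulated counts with 200 genes changed by 2 on the log2 scale, the fit recovered 59.5% of these among 18463 genes for the TAN groups, 54% among 17153 genes for PyMT TANs against BM and 83.5% among 17732 genes for PyMT-Cxcr2-/- TANs against BM.

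The members and gene lists were chosen with earlier results of these data known. Named were the members, the further S100 genes, Cxcr2, partner genes called between TAN groups, up to 4 per list with the largest calls against BM, and the 5 genes most like S100a8 and S100a6, of which 1 is not reported here. Tlr4, Ly6g, Cd3d, Mrc1, Cd163, Csf3r, Gm42674 and S100a11-ps were named after their values were seen. Same-numbered libraries are different mice. Their correlations of deviations were -0.227 to -0.0756 between TAN groups. They were -0.113 to 0.0712 between PyMT TANs and BM and -0.000731 to 0.0931 between PyMT-Cxcr2-/- TANs and BM. The labels state no pairing by number, and a batch shared by number was not tested.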

Additional observations from a re-analysis of the deposited data

Results flagged for a closer look

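Of 30 groups of 4 libraries tested for a sample far from the others (Dixon's test), 3 held one, and chance flags about 1 in 20 groups. S100a8 was at 9943 CPM in replicate 4 of PyMT-Cxcr2-/- TANs, against 5749 to 6376 CPM in the other libraries of the group. S100a4 was at 0.744 CPM (35 counts) in replicate 1 of PyMT TANs, against 0.399 to 0.452 CPM in the others. S100a10 was at 0.419 CPM (15 counts) in replicate 4 of WT BM neutrophils, against 1.14 to 1.29 CPM in the others.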

How the results depend on the processing

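Between the TAN groups, 4 members were called higher, with 0 under the replicate block, 1 under the adjustment for GC content and length, 0 under both together, and 1 to 4 when a library was left out. Of all genes, 365 were called, with 594 without a filter, 886 with 12 libraries in 1 fit, 987 by DESeq2, 95 under the adjustment, 13 under the replicate block, 33 under both, and 23 to 513 when a library was left out (23 without PyMT TAN replicate 2). The share of higher calls moved from 69.9% to 57.9% under the adjustment, from 56.4% to 45.8% in PyMT TANs against BM and from 57.9% to 39.6% in PyMT-Cxcr2-/- TANs against BM, with medians of all genes of -0.16, -0.15 and -0.40 on the log2 scale. The adjusted p of S100a8 was 0.0501 without robust estimation. The cause of these moves was not tested.

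Uncalled differences near 0 between the TAN groups changed sign. S100a4 (-0.37 to 0.30 with a library left out) was at 0.0025 with DESeq2 size factors, 0.012 without a filter, 0.0026 by DESeq2, and 0.23, 0.14 and 0.30 without PyMT replicate 1, PyMT-Cxcr2-/- replicate 2 and replicate 4. S100a1 (-0.42 to 0.35) was at 0.020, 0.041 and 0.019 under the same 3 settings, and 0.35, 0.18 and 0.14 without PyMT replicate 4, PyMT-Cxcr2-/- replicate 3 and replicate 4. S100a10 (-0.36 to 0.28) was at 0.12 under the replicate block, and 0.28, 0.14 and 0.16 without PyMT replicate 3, PyMT replicate 4 and PyMT-Cxcr2-/- replicate 4. The log2 ratio of S100a9 to S100a8 was -0.0020 without PyMT replicate 3, within a range of -0.0020 to 0.11.

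With the replicate block, the ratio tests against BM for S100a9 to S100a8 (-0.72 and -0.66) and the 3 for S100a4 to S100a6 (-2.01, 5.33 and 3.32) had an adjusted p of 0.15, since 4 pairs cannot go below 0.125. With a library left out they were -0.76 to -0.66, -0.70 to -0.62, -2.38 to -1.32, 4.84 to 5.59 and 2.84 to 4.01 (adjusted p up to 0.103 and 0.0686 by exact permutation for the -2.01 and 3.32). Members called higher against BM were 2 to 3 in both TAN groups and members called lower 5 throughout, and all genes called were 8735 to 10255 in PyMT TANs and 10212 to 10947 in PyMT-Cxcr2-/- TANs. By replicate number, 0 of 4 PyMT-Cxcr2-/- libraries correlated best with the PyMT library of their number. For the BM library of their number, this was 0 of 4 PyMT and 3 of 4 PyMT-Cxcr2-/- libraries. Adjusted p under the block was 0.185 for S100a8 and S100a9, 0.103 for S100a6 and 0.149 for S100a11. The depth does not resolve S100a4 in BM, at 1 to 5 counts.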
